A study of Arabidopsis thaliana with 8 samples.

Results

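The genes described here encode the 6 members of the CYP78A family of cytochrome P450 enzymes on the array, CYP78A5 (AT1G13710) to CYP78A10, and 3 members of the ARGOS family, which are ARGOS (AT3G59900), ARL (AT2G44080) and OSR1 (AT2G41230). The other CYP78A genes are CYP78A6 (AT2G46660), CYP78A7 (AT5G09970), CYP78A8 (AT1G01190), CYP78A9 (AT3G61880) and CYP78A10 (AT1G74110). The 9 genes were taken by locus from the 26716 loci that the probes of the array covered, and each was read by 1 probe. They were chosen by family, with their processed signal on these 8 arrays already known, so their levels are given as a description with no p. Whether each passed the threshold of the fit over all genes is stated as part of that description and supports nothing.

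Labelled RNA from seedlings of Arabidopsis thaliana, ecotype Col-0, was hybridised to 8 Agilent arrays, each read in a single colour. Plants were kept on MS agar at 22 °C under days of 16 hours and nights of 8 hours. All of them received 1 µM brassinazole, an inhibitor of brassinosteroid synthesis, for 14 days. One group of 4 samples was the mutant bil1-1D/bzr1-1D, which carries a dominant allele of the brassinosteroid-response transcription factor BZR1, and was then given 1 µM brassinolide, an active brassinosteroid, for 3 hours. The other group of 4 samples was wild type given DMSO, the solvent, for 3 hours. Genotype and hormone therefore differed together, and what each contributed cannot be told apart. Each group lay on a slide and in a scan of its own, so slide, scan and group cannot be told apart either. The labels do not say that samples came from separate cultures, so the spread between them may be technical.

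CYP78A enzymes are known in Arabidopsis as promoters of organ growth. KLUH, the product of CYP78A5, acts beyond the cells that make it: it is made at the edge of the shoot meristem and in young organs, and prolongs cell division in leaves, floral organs and the seed coat. The substrate of the family has not been settled. ARGOS family proteins are small membrane proteins that enlarge organs when made in excess. ARGOS is known as an auxin-induced gene that prolongs cell division, ARL (ARGOS-LIKE) as a brassinosteroid-responsive gene that promotes cell expansion, and OSR1 (ORGAN SIZE RELATED 1) as a gene that acts on both. Proteins of the family also lower the response to ethylene.

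Levels below are log2 of the processed signal over the 75th percentile of the same array, so that 0 is the percentile itself. That percentile was 3033 to 3821 on the mutant arrays and 4638 to 6153 on the wild-type arrays. Between 74.5% and 75.8% of spots were well above background on the mutant arrays, against 79.5% to 80.6% on the wild-type arrays. Over all genes the correlation of levels was 0.993 to 0.996 within the mutant group, 0.990 to 0.996 within wild type and 0.967 to 0.976 between groups. The scanner software marked 3 arrays for evaluation, mutant replicate 4 and wild-type replicates 1 and 2. A gene was called past the threshold where its limma p, adjusted by Benjamini-Hochberg over the 22101 genes tested, was under 0.05. Of these genes 12349 passed, 6678 higher and 5671 lower in the mutant. The split turned to 1403 higher and 3012 lower when arrays were scaled to the spike-in probes, and to 3984 and 5081 with normexp background correction.

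Leaf and root markers were well above background on every array of both groups. Of 11 markers of the shoot apex and young organs, where several of the genes are known to be active, 9 were tested. STM, KNAT1, CUC1 and AS1 rose, CUC2 and CUC3 fell, and 3 did not pass. Their summed level, relative to the percentile, was 1.68 to 1.87 on the mutant arrays and 1.40 to 1.75 on the wild-type arrays. Leaf markers summed to 230 to 258 against 199 to 242, with 2 of 5 higher and 2 lower. The part of these shifts in the values below was not tested. In RNA from seedlings, fewer cells of a type and less RNA per cell cannot be told apart.

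Of the 9 genes, 8 were well above background on all 8 arrays and entered the fit over all genes, and CYP78A10 was not well above background on any array. The largest differences were falls of CYP78A6, to a level 12.4-fold lower in the mutant, and of CYP78A5, 3.21-fold lower. CYP78A9 was 1.76-fold and CYP78A7 1.56-fold higher. ARGOS and ARL were slightly higher and OSR1 slightly lower, each by less than 1.5-fold. Past the threshold were 7 of the 8 genes, 4 higher and 3 lower, where 55.9% of all genes tested passed, 30.2% higher and 25.7% lower. In 5 of the 8 the groups did not overlap, where that held for 52.2% of all genes. At least 2-fold and past the threshold were 2 of the 8, where 8.1% of all genes were. The median difference over the 8 genes was -0.05 on the log2 scale, beside 0.03 over all genes. Nothing is read from these counts, since the choice of genes used the same comparison.

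**Figure D1:**
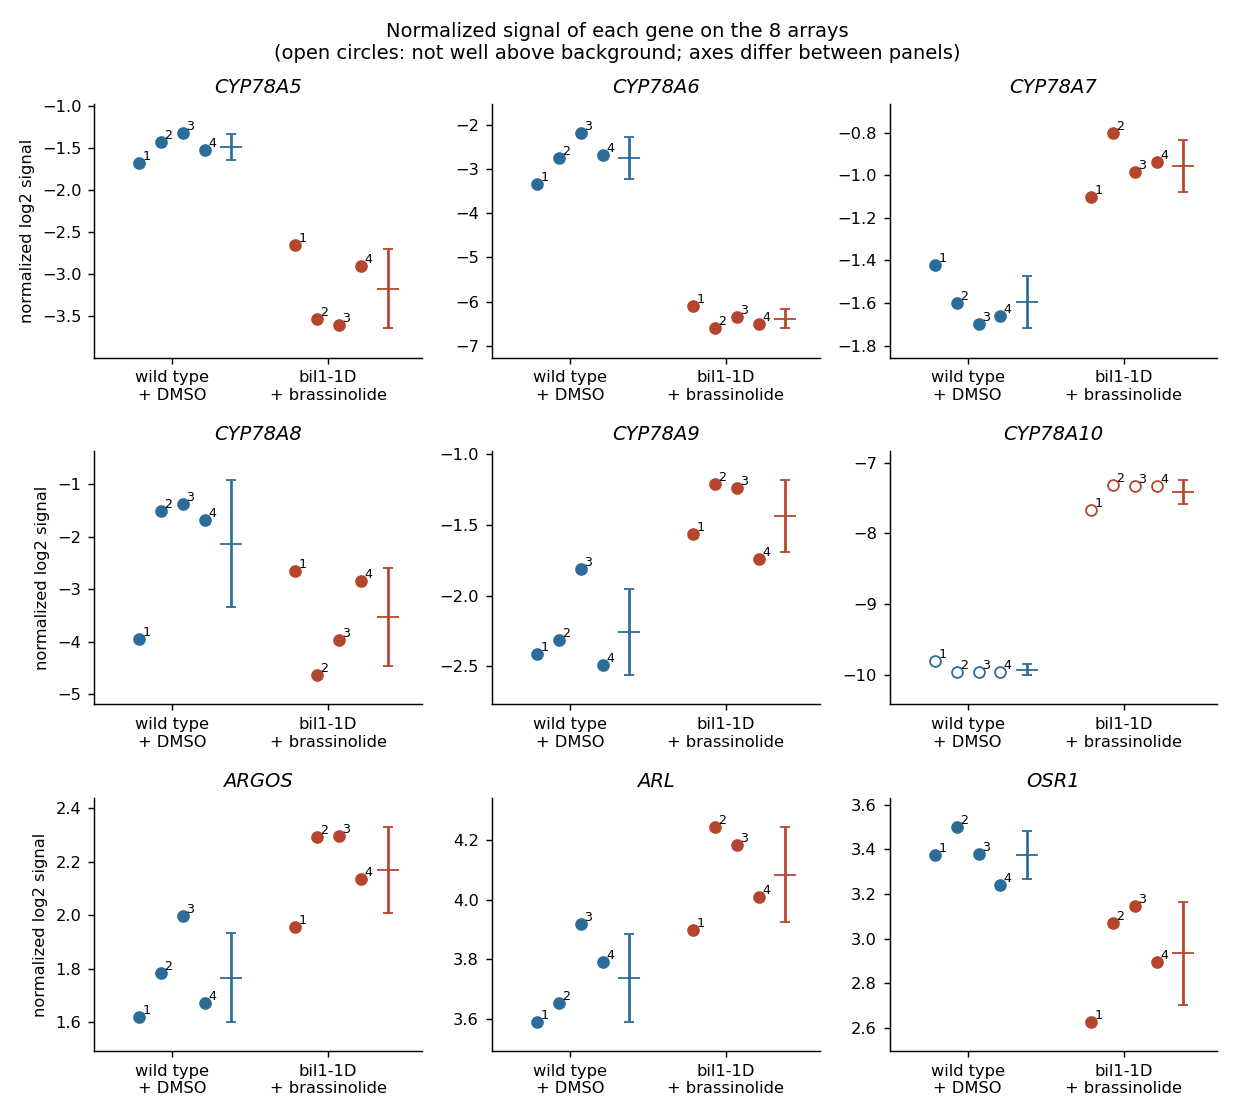
Normalized log2 signal (y axis, relative to the array's 75th percentile) of the 9 genes on the 4 wild-type arrays with DMSO and the 4 bil1-1D arrays with brassinolide, numbered by replicate, with the group mean and SD as a bar. The groups lie apart for CYP78A5, CYP78A6, CYP78A7, CYP78A9 and OSR1. They overlap for CYP78A8, ARGOS and ARL, and CYP78A10 (open circles) was not well above background.

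CYP78A5, which encodes KLUH, was lower in the mutant given brassinolide. Its levels on mutant replicates 1 to 4 were -2.65, -3.53, -3.60 and -2.90. The wild-type replicates read -1.68, -1.43, -1.32 and -1.52, so every wild-type array lay above every mutant array. The means were -3.17 ± 0.47 (SD, n = 4) in the mutant and -1.49 ± 0.15 (SD, n = 4) in wild type, a difference of -1.68 ± 0.22 (SE) on the log2 scale. The mutant arrays split, with replicates 1 and 4 above replicates 2 and 3, and the SD there was larger than that of 95.2% of genes. In order of size this fall was number 409 among the genes tested.

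CYP78A7, which is known to act redundantly with CYP78A5 in the pace of leaf initiation and in the meristem, had a difference of the opposite sign. The mutant replicates read -1.10, -0.80, -0.99 and -0.94. The wild-type replicates read -1.42, -1.60, -1.70 and -1.66, so the lowest mutant array lay above the highest wild-type array. The difference was 0.64 ± 0.08 (SE), between means of -0.96 ± 0.12 and -1.60 ± 0.12 (SD, n = 4 each). Before scaling, the mean processed signal was nearly equal, 1776 in the mutant and 1779 in wild type, and with spike-in scaling the difference was 0.52 and did not pass the threshold. Normexp correction gave 0.33, which passed.

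CYP78A6, also called EOD3, and CYP78A9 are known as maternal promoters of seed growth that act redundantly, and CYP78A9 also enlarges fruit when overexpressed. In these seedlings they differed between the groups in opposite directions. CYP78A6 read -6.10, -6.59, -6.33 and -6.50 on the mutant replicates and -3.35, -2.76, -2.19 and -2.70 on the wild-type replicates. The gap between the nearest arrays of the groups was wider than the spread within either. The means were -6.38 ± 0.22 and -2.75 ± 0.48 (SD, n = 4 each), and the difference was -3.63 ± 0.23 (SE), number 39 among falls. On the mutant arrays the probe was dim, with a processed signal of 35.8 to 55.9 and a signal error of 13.2% to 16.6%, though well above background on each. Background handling moved the size of this fall: it was -2.92 with normexp, -2.53 with normexp on the negative-control spots and -3.26 in the authors' value table, and past the threshold in each.

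CYP78A9 read -1.56, -1.21, -1.24 and -1.74 on the mutant replicates and -2.41, -2.31, -1.81 and -2.49 on the wild-type replicates. The groups stood apart by little, since the lowest mutant array, replicate 4, lay just above the highest wild-type array, replicate 3. The difference was 0.82 ± 0.18 (SE), between means of -1.44 ± 0.26 and -2.26 ± 0.30 (SD, n = 4 each). With normexp it was 0.40 and did not pass.

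CYP78A8, a less studied member of the family, varied more between arrays of a group than nearly any other gene. The mutant replicates read -2.66, -4.64, -3.96 and -2.84. The wild-type replicates read -3.94, -1.51, -1.38 and -1.69, so wild-type replicate 1 fell among the mutant arrays while the other 3 lay above them all. The SD was 0.94 in the mutant and 1.22 in wild type, larger than that of 99.3% and 99.8% of genes. The scanner software gave these spots a signal error of 10.0% to 10.4%, which covers the reading of a spot and no spread between samples, labellings or hybridisations. The difference of -1.39 ± 0.66 (SE), or 2.63-fold, did not pass the threshold. It was -1.999 without wild-type replicate 1 and -2.22 without the 3 marked arrays, both past the threshold, and -1.52 and past it with spike-in scaling.

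Part of this order of arrays was shared by root markers. On the mutant arrays COBL9, a gene of root hair cells, read -1.14, -2.30, -1.83 and -1.20, and the root hair expansin EXPA7 read -1.48, -2.71, -2.26 and -1.34. Replicates 1 and 4 were thus the higher ones and replicate 2 the lowest, as for CYP78A8. The same held for PYK10, SHR and IRT1. It did not hold for SCR, which read -0.30, -0.25, -0.22 and -0.23 on the mutant arrays and was lowest on replicate 1. On the wild-type arrays COBL9 read -1.53, -1.03, -1.10 and -1.28 and EXPA7 -1.96, -1.53, -1.60 and -1.84, with replicate 1 lowest in both, as it was in wild type for all 6 root markers. IRT1, the iron transporter of the root epidermis, read -0.84, -1.76, -1.66 and -1.46 in the mutant and -7.27, -2.70, -1.77 and -3.12 in wild type. All 6 root markers were well above background on all 8 arrays. Of these, 0 rose and 1 fell past the threshold in limma, with 0 higher at an unadjusted p under 0.05. The one that fell was PYK10, a beta-glucosidase of roots (-0.43 ± 0.08, adjusted p = 0.0022 in limma). The summed level of the 6 root markers, most of it from PYK10, was 26.1 to 30.3 on the mutant arrays and 32.4 to 40.0 on the wild-type arrays. SCR, SHR and IRT1 had higher means in the mutant (differences of 0.10, 0.18 and 2.29). COBL9 and EXPA7 had lower ones (-0.39 and -0.21), and none of these differences passed the threshold. CYP78A5 too was higher on mutant replicates 1 and 4 and lowest in wild type on replicate 1, though its lowest mutant array was replicate 3. The part of the root share in the values of CYP78A8 and CYP78A5 was not tested.

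**Figure D2:**
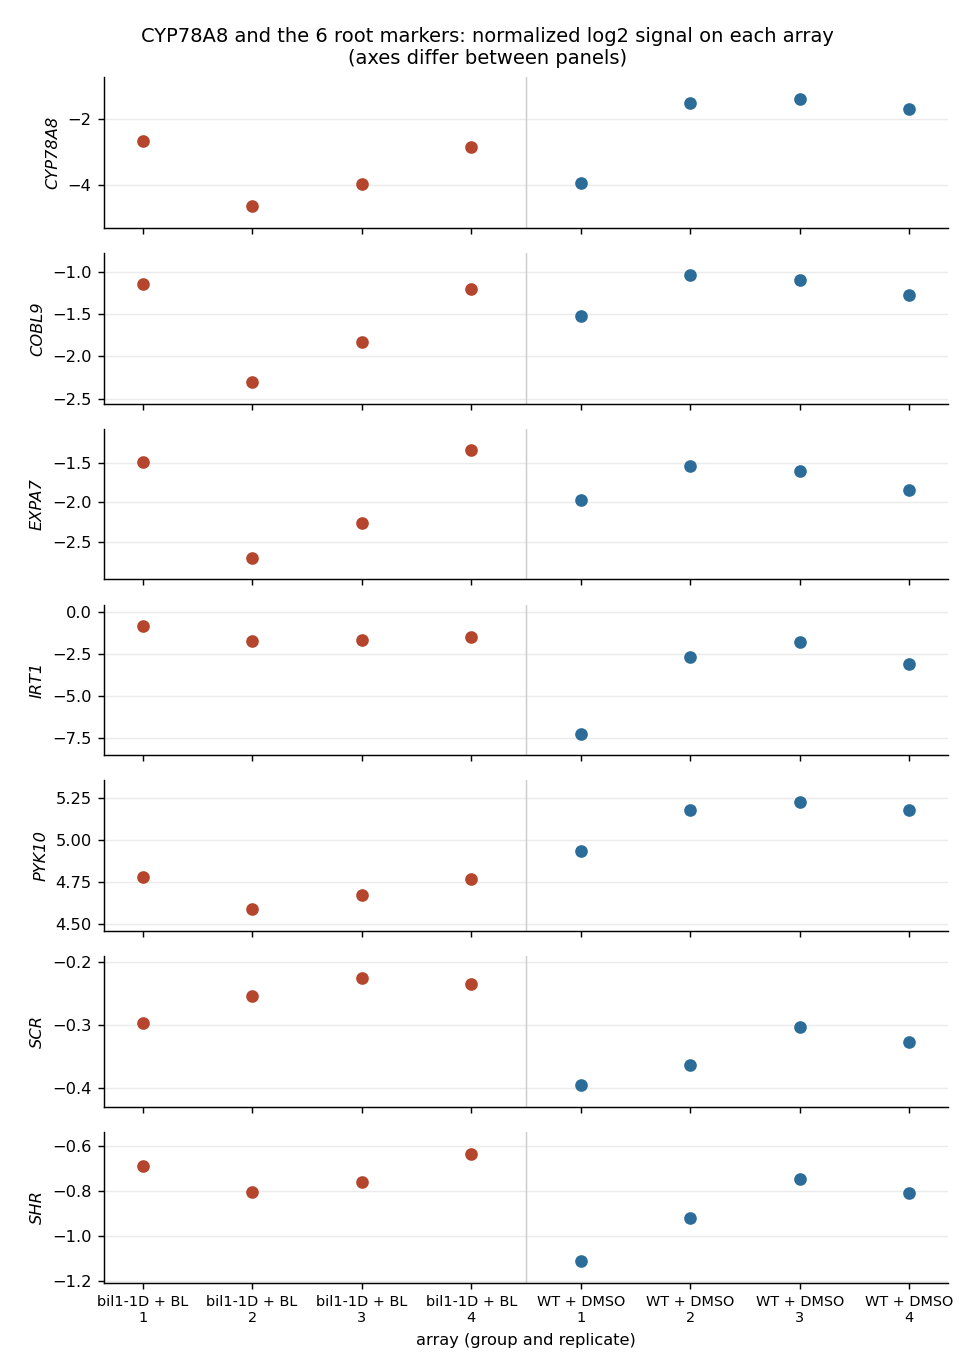
Normalized log2 signal (y axes, 1 panel a gene) of CYP78A8 and 6 root markers on each array (x axis, group and replicate). CYP78A8, COBL9 and EXPA7 were lower on mutant replicates 2 and 3 than on 1 and 4 and lowest in wild type on replicate 1. The other root markers were lowest in wild type on replicate 1 too, SCR and SHR over a narrower range. On the mutant arrays SCR went the other way and was lowest on replicate 1.

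The 4 genes outside the family whose levels over the 8 arrays were most like those of CYP78A8, each centred on its own mean, were sought after its values were seen, among 20960 genes. They were AT1G77530 (root mean square difference 0.49), AT5G37990 (0.54), TPS-CIN (0.56), a terpene synthase, and CYP735A1 (0.61), a P450 of cytokinin synthesis. AT1G77530, for example, read -2.61, -3.40, -3.31 and -2.60 in the mutant and -2.90, -1.72, -1.44 and -1.51 in wild type. None of them came as near to CYP78A8 as the genes named below came to CYP78A6 and CYP78A9.

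CYP78A10 has no level that can be compared between the groups. Its processed signal was 18.8, 21.7, 18.8 and 21.4 on the mutant replicates and 6.85, 2.82, 2.66 and 3.31 on the wild-type replicates, not well above background on any array. The lowest signal that counted as well above background was 17.3 to 19.9 on the mutant arrays and 11.3 to 15.6 on the wild-type arrays. The signal on mutant replicates 2, 3 and 4 lay above that minimum of its own array, though the spot itself was not counted as well above background. The signal error of the probe was 23.7% to 99.6%. No fold is given, since the probe was not well above background in either group.

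The 3 ARGOS family genes described here were bright on every array. ARGOS read 1.96, 2.29, 2.29 and 2.14 on the mutant replicates and 1.62, 1.78, 1.996 and 1.67 on the wild-type replicates. Mutant replicate 1 lay just below wild-type replicate 3, so the groups overlapped. The means were 2.17 ± 0.16 and 1.77 ± 0.17 (SD, n = 4 each) and the difference 0.40 ± 0.11 (SE), 1.32-fold higher in the mutant.

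ARL read 3.90, 4.24, 4.18 and 4.01 in the mutant and 3.59, 3.65, 3.92 and 3.79 in wild type. It had the same single overlap, of mutant replicate 1 with wild-type replicate 3. The difference was 0.35 ± 0.10 (SE), 1.27-fold higher, between means of 4.08 ± 0.16 and 3.74 ± 0.15 (SD, n = 4 each). For both genes the groups stood in the opposite order before scaling between arrays. The mean unscaled processed signal of ARGOS was 15459 in the mutant and 18054 in wild type, and that of ARL was 58301 and 70713.

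OSR1 differed from both in direction on the scaled levels. The mutant replicates read 2.63, 3.07, 3.15 and 2.89 and the wild-type replicates 3.38, 3.50, 3.38 and 3.24. Every mutant array lay below every wild-type array. The means were 2.93 ± 0.23 and 3.37 ± 0.11 (SD, n = 4 each) and the difference -0.44 ± 0.12 (SE), 1.36-fold lower. Its mean processed signal before scaling was 26306 and 55283, lower in the mutant as well. On the scaled levels all 3 genes were lowest on mutant replicate 1, next lowest on replicate 4 and higher on replicates 2 and 3. Before scaling, ARL was lowest on mutant replicate 3 (processed signal 55087, against 56911 on replicate 1), while ARGOS and OSR1 were lowest on replicate 1. CYP78A5 and CYP78A8 were instead highest on mutant replicates 1 and 4.

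None of these 3 differences passed the threshold with spike-in scaling (0.28 for ARGOS, 0.22 for ARL and -0.56 for OSR1) or without the 3 marked arrays (0.35, 0.25 and -0.36). ARL also did not pass without mutant replicate 3 (0.31) or without wild-type replicate 2 (0.32), and OSR1 did not pass with normexp (-0.32).

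The difference between 2 genes on the same array needs no scaling between arrays, and its shift between groups shows unequal change. ARGOS minus OSR1 was -0.67, -0.78, -0.85 and -0.76 on the mutant replicates and -1.76, -1.72, -1.38 and -1.57 on the wild-type replicates. The groups lay apart, with a shift of 0.84 on the log2 scale. ARL minus OSR1 was 1.15 ± 0.10 in the mutant and 0.36 ± 0.21 in wild type (SD, n = 4 each), a shift of 0.79 with no overlap. ARGOS minus ARL was -1.91 ± 0.04 and -1.97 ± 0.11, a shift of 0.06 with overlap. ARGOS and ARL thus kept nearly the same distance on all 8 arrays, and OSR1 was lower relative to both in the mutant. Such differences do not show opposite directions, since the mean processed signal before scaling was lower in the mutant for each of these genes.

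Among the CYP78A genes, CYP78A5 minus CYP78A7 was -1.55, -2.73, -2.61 and -1.97 on the mutant replicates and -0.26, 0.17, 0.38 and 0.14 on the wild-type replicates. This pair shifted by -2.32 with no overlap. CYP78A6 minus CYP78A9 was -4.94 ± 0.37 in the mutant and -0.49 ± 0.31 in wild type (SD, n = 4 each), a shift of -4.45. The fall of CYP78A6 was the deeper of the falls, since CYP78A5 minus CYP78A6 shifted by 1.95 with no overlap. CYP78A7 minus CYP78A9 shifted by -0.18, from 0.66 ± 0.38 in wild type to 0.48 ± 0.23 in the mutant, and the groups overlapped.

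**Figure D3:**
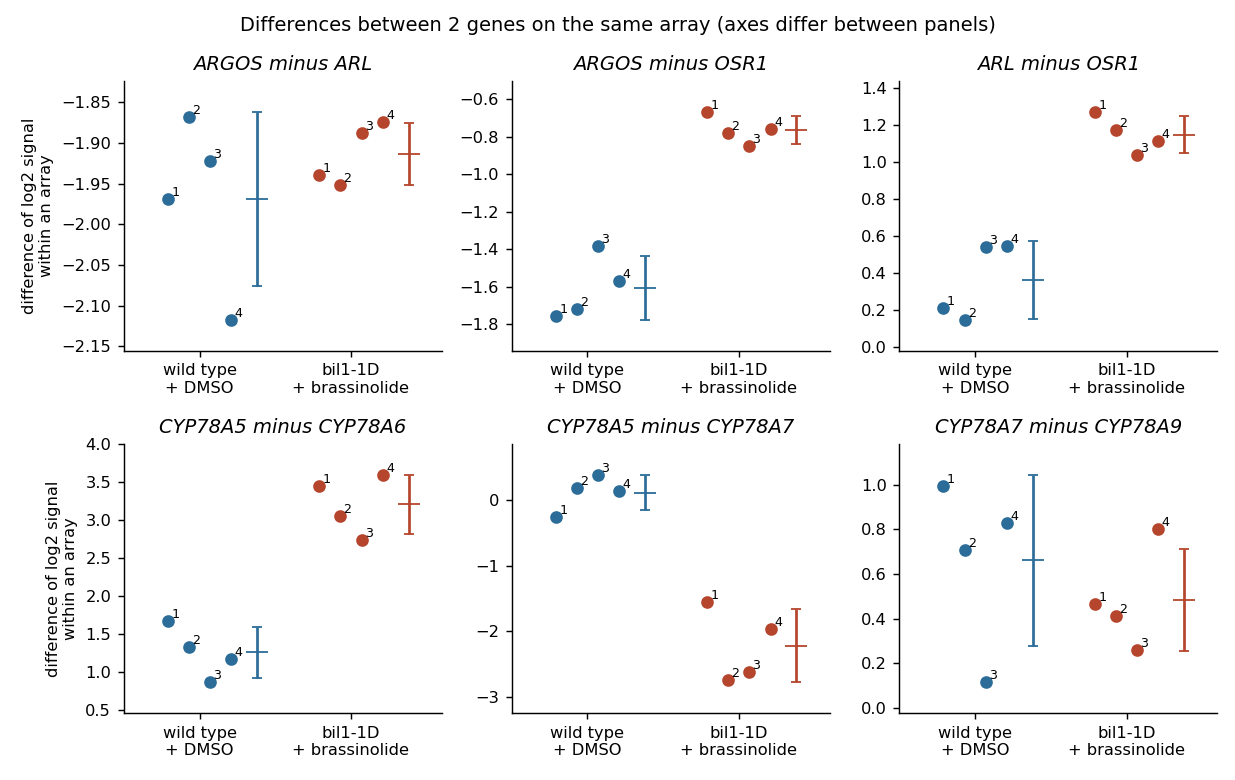
Difference of log2 processed signal between 2 genes on the same array (y axis) for 6 pairs, by group and replicate, with the group mean and SD as a bar. ARGOS minus ARL and CYP78A7 minus CYP78A9 overlap between groups, while the other 4 pairs lie apart.

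Each of the 8 differences kept its sign under all 20 alternatives in processing. Not all of these could move a difference, since each gene had 1 probe, well above background on all 8 arrays. Looser or stricter detection, averaged probes, robust eBayes and the replicate block left the differences as they were. The fits that left out arrays reused the same values. CYP78A5 ranged from -1.86 to -1.54 and CYP78A6 from -3.90 to -2.53, past the threshold in all 20. CYP78A7 ranged from 0.33 to 0.72 and CYP78A9 from 0.40 to 0.97, each past it in 19. ARGOS ranged from 0.28 to 0.52 (18 past), ARL from 0.22 to 0.53 (16 past) and OSR1 from -0.56 to -0.32 (17 past). CYP78A8, from -2.22 to -1.02, passed in 3. Of these 8 genes, 4 passed with spike-in scaling, where 20% of all genes did, 5 with normexp (41%) and 5 without the 3 marked arrays (39.6%). Spike-in scaling moved the median difference of all genes by -0.12, against which its values for single genes are to be read.

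**Figure D4:**
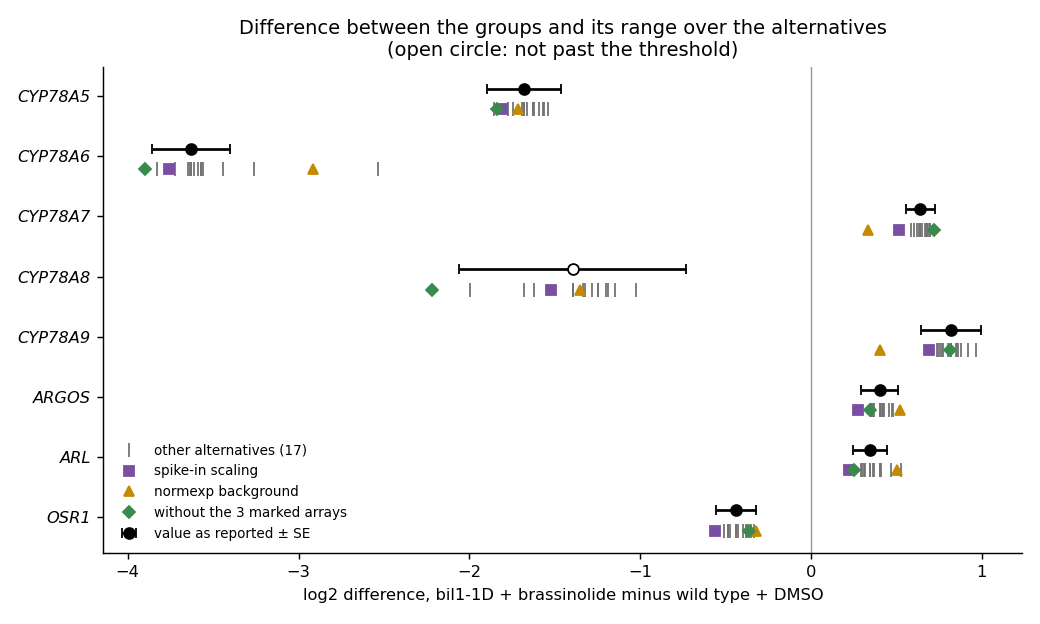
Log2 difference of each gene, bil1-1D with brassinolide minus wild type with DMSO (x axis): the reported value with its SE (circle, open where not past the threshold) above its values under 20 alternatives (marks). No mark crosses 0 for any of the 8 genes, and CYP78A6 ranges from -3.90 to -2.53. Marks for other detection filters, averaged probes, robust eBayes and the replicate block fall on the reported value by construction.

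The genes act among others that set organ size, and those moved in both directions. Of 22 further genes known to promote organ growth, 19 were tested, of which 6 rose, 5 fell and 8 did not pass (57.9% past the threshold, beside 55.9% of all genes). Their median difference was -0.00, beside 0.03 for all genes. The largest rises were those of LNG2 (1.35 ± 0.10 SE, adjusted p = 2.5e-05) and LNG1 (0.95 ± 0.15, adjusted p = 0.001), paired genes that promote lengthwise cell elongation. SHB1, which promotes seed growth, rose by 0.80 ± 0.21 (adjusted p = 0.0112), a call lost without the 3 marked arrays (adjusted p = 0.083). EXPA10, a leaf expansin, fell most (-1.19 ± 0.09, adjusted p = 3.0e-05). The D-type cyclins CYCD3;3 (-0.56 ± 0.10, adjusted p = 0.0019) and CYCD3;2 (-0.45 ± 0.09, adjusted p = 0.0044) fell too, the latter not past the threshold with spike-in scaling (adjusted p = 0.0508). CYCD3;1, of the same group of cyclins, rose instead (0.62 ± 0.09, adjusted p = 8.0e-04).

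Of 19 genes known to restrict organ growth, all were tested, of which 6 rose, 6 fell and 7 did not pass (63.2% past the threshold), with a median difference of 0.03. AP2, which limits seed size, rose by 0.61 ± 0.05 (adjusted p = 5.7e-05) and TCP3, a factor that ends cell division in leaves, by 0.36 ± 0.10 (adjusted p = 0.0144). BB, the ubiquitin ligase BIG BROTHER, rose by 0.29 ± 0.09 (adjusted p = 0.0275), but its sign turned with normexp (-0.037, adjusted p = 0.874). The call on BB was also lost without the 3 marked arrays (adjusted p = 0.134) and in 5 of the 8 fits that left out 1 array, without mutant replicate 1, 2 or 3 or wild-type replicate 2 or 4 (highest adjusted p = 0.074). None of these rises passed with spike-in scaling. TCP10 (-0.81 ± 0.07, adjusted p = 7.6e-05), the small peptide gene ROT4 (-0.79 ± 0.10, adjusted p = 2.8e-04) and the auxin response factor ARF2 (-0.69 ± 0.10, adjusted p = 5.9e-04) fell most. Without the 3 marked arrays, 3 restrictors were higher past the threshold in place of 6.

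Since ARGOS family proteins act on the ethylene pathway, 13 genes of ethylene perception and signalling were counted. All were tested, of which 4 rose, 5 fell and 4 did not pass (69.2% past the threshold), with a median difference of 0.07. The receptor genes ERS1 (-0.94 ± 0.08, adjusted p = 6.8e-05) and ERS2 (-0.61 ± 0.09, adjusted p = 7.1e-04) fell, as did CTR1, the kinase that holds the pathway off (-0.51 ± 0.07, adjusted p = 6.6e-04). EIL1, a transcription factor of the pathway, rose by 0.63 ± 0.13 (adjusted p = 0.0046). RTE1, a membrane protein that promotes the receptor ETR1, and its relative RTH rose by 0.25 ± 0.06 (adjusted p = 0.0097) and 0.29 ± 0.04 (adjusted p = 0.001). With spike-in scaling 0 of the 13 were higher past the threshold in limma, 1 at an unadjusted p under 0.05, and without the 3 marked arrays 1 was.

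**Figure D5:**
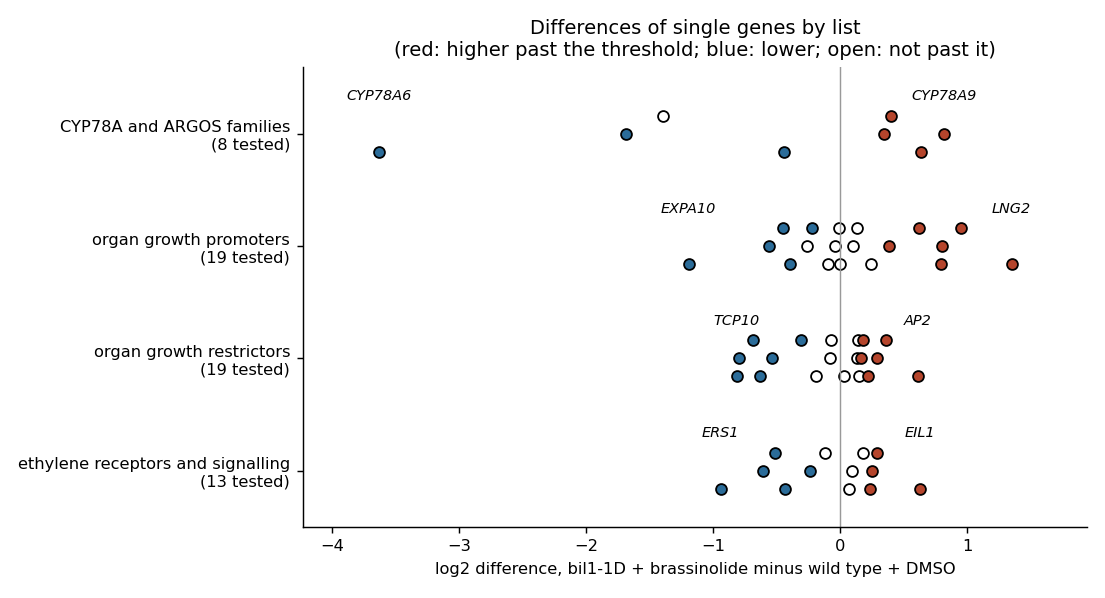
Log2 difference, bil1-1D with brassinolide minus wild type with DMSO (x axis), of each tested gene by list (rows), with the lowest and highest gene of each row named. Points are red where higher and blue where lower past the threshold and open otherwise; each of these 4 rows holds genes on both sides of 0, and among the genes plotted CYP78A6 at -3.63 lies furthest out.

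Beyond the CYP78A genes, 244 loci on the array carried a symbol or synonym made of CYP and a number, of which 9 are annotated as cyclophilins, which share the letters and are no P450 enzymes. Of the other 235 loci, which are cytochrome P450 genes, 192 were tested. Of these 42 rose, 64 fell and 86 did not pass (55.2% past the threshold), with a median difference of -0.14. At least 2-fold and past the threshold, 9 of the 192 rose and 34 fell. Of all 22101 genes tested 680 rose and 1110 fell so far, 8.1% in either direction. The falls include genes well above background on no mutant array, which entered the fit through wild type alone and whose fold is uncertain. The 9 cyclophilins, left out after the values were seen, were all tested, and 0 rose and 2 fell. The 3 largest falls past the threshold were of genes of brassinosteroid synthesis. On no mutant array was BR6OX2 well above background (measured means -9.31 ± 0.07 and -0.99 ± 0.19, SD, n = 4 each). It was lower (adjusted p = 6.8e-09), by 90.5-fold on an approximate bound. DWF4 (-6.05 ± 0.11 SE, adjusted p = 6.5e-08) and CYP90D1 (-4.84 ± 0.11, adjusted p = 1.3e-07) followed. A bound of this kind sets the wild-type mean against, on each mutant array, the higher of the probe's own signal and the lowest signal that counted as well above background. It is no strict limit, since a probe above that lowest signal may still not be counted, as CYP78A10 was not. The largest rise was that of BAS1, which inactivates brassinosteroids (3.01 ± 0.09, adjusted p = 3.9e-07), lost with normexp (1.17, adjusted p = 0.0856). CYP71B4 rose by 1.56 ± 0.14 (adjusted p = 6.5e-05). CYP71A24 rose by 1.77 ± 0.48 (adjusted p = 0.0141), but turned to -1.41 with normexp (adjusted p = 0.201) and did not pass without the marked arrays (adjusted p = 0.197).

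Over the 8 arrays, the gene most like CYP78A6 among 20960 was a gene of that pathway, CPD, the P450 CYP90A1 (root mean square difference 0.18 on the log2 scale). CPD read -1.48, -1.72, -1.70 and -1.56 in the mutant and 1.89, 2.09, 2.68 and 2.27 in wild type, a difference of -3.84 ± 0.16 (adjusted p = 2.1e-06). In both genes wild-type replicate 1 was lowest and replicate 3 highest of the wild-type arrays. CPD was picked for its likeness on these same values, so the shared order supports nothing further. TPD1, a small secreted protein known from anthers, came second (0.28), with a difference of -3.20 ± 0.18 (adjusted p = 8.3e-06).

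CYP78A9 was most like GTL1 (root mean square difference 0.09), a transcription factor that restricts cell growth in trichomes and root hairs, and the MIR396a locus (0.11), whose microRNA acts on growth-regulating factors. GTL1 read -1.32, -1.11, -1.14 and -1.56 in the mutant and -2.30, -2.24, -1.91 and -2.40 in wild type. MIR396a read -2.15, -1.80, -1.91 and -2.20 and -3.02, -2.73, -2.51 and -2.88. In all 3 genes mutant replicate 4 was the lowest mutant array and wild-type replicate 3 the highest wild-type array. GTL1 and MIR396a were picked for likeness on these same values, so the shared order supports nothing further. GTL1 rose by 0.93 ± 0.13 (adjusted p = 0.00063) and MIR396a by 0.77 ± 0.13 (adjusted p = 0.0016). Neither rise passed with normexp (adjusted p = 0.0899 and 0.672), nor did that of CYP78A9.

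The annotated loci on either side of each of the 9 genes were added after the values were seen. Of these 18 loci 17 were tested, of which 9 rose, 6 fell and 2 did not pass (88.2% past the threshold, beside 55.9% of all genes), with a median difference of 0.23. With spike-in scaling 1 was higher and 5 lower, where 20% of all genes passed. With normexp 5 were higher and 5 lower (41% of all genes), and without the 3 marked arrays 8 and 3 (39.6%). Beside CYP78A5, PGL1, which encodes a 6-phosphogluconolactonase, rose by 1.16 ± 0.17 (adjusted p = 6.7e-04), against the fall of CYP78A5, and the locus on the other side, AT1G13730, did not pass (0.14 ± 0.07, adjusted p = 0.116). Both neighbours of CYP78A6 fell: AT2G46670 by 1.22 on the log2 scale (SE 0.11, adjusted p = 7.1e-05) and CB5-C, a cytochrome b5 gene, with a difference of -0.43 ± 0.10 (adjusted p = 0.0074). The call on CB5-C was lost with spike-in scaling (adjusted p = 0.0862), with normexp (0.0745) and without the 3 marked arrays (0.0857).

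OSR1 has a locus, AT2G41231, that overlaps it in the RefSeq TAIR10.1 annotation. AT2G41231 fell with a difference of -0.49 ± 0.11 (adjusted p = 0.0076), not past the threshold without the marked arrays (-0.36, adjusted p = 0.134). In a search made after the values were seen, it was also the gene most like OSR1 (root mean square difference 0.081 over the 8 arrays). Loci that do not adjoin OSR1 came nearly as close, AT1G17430 (0.083), LPR2 (0.084) and AT3G13190 (0.084). AT2G41231 read -1.87, -1.47, -1.46 and -1.73 in the mutant and -0.99, -1.12, -1.14 and -1.35 in wild type. How far the probes of the overlapping loci read the same transcript was not tested, so the values of OSR1 are uncertain to that extent. On its other side AT2G41225 was well above background on no mutant array. It was lower (measured means -9.38 ± 0.23 and -6.95 ± 0.13, SD, n = 4 each, adjusted p = 4.1e-06), by 1.46-fold on the same approximate bound as for BR6OX2. With normexp on the negative-control spots its difference was -0.11, smaller than that bound, and did not pass (adjusted p = 0.325).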

How the data were processed

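Each scanner file holds linear spot intensity as deposited by the authors; per the file headers, Agilent Feature Extraction 11.5.1.1 subtracted background and detrended it within each array of design 021169. The submitters' processing notes give the version as 9.1.3.1. Per the labels' protocols, 200 ng of RNA, isolated with an RNeasy kit, was labelled with Cy3 by a low-input kit. The authors' deposited value table, used as an alternative only, was taken as natural log (slope 0.948 to 0.979 when set against ln of processed signal). Its columns share 1 set of values with a median of -0.970, so it was quantile normalized; its log base is an inference and its centring and target distribution are unknown.

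Of 43603 probes, 36163 matched 1 locus in the RefSeq TAIR10.1 gene table, used for names and gene order only, and 7440 matched none or several. Outlier spots (93 in all) were dropped, and 0 spots were saturated. The processed signal of a probe was expressed as log2 of its ratio to the array's 75th percentile, with a floor at 0.001 of that percentile. Probes entered the fit if every array of either group read them well above background, and the brightest such probe by mean stood for its gene. The 2 groups were fitted in R 4.3.3 by limma 3.58.1 (lmFit and eBayes) with Benjamini-Hochberg adjustment across 22101 genes, after a check on simulated data. Every adjusted p is from this fit unless an alternative is named. Summaries used pandas 2.3.3 in Python 3.11.15, and figures matplotlib 3.10.9. Precision is limited by the number of arrays, and p-values measure only the spread between these samples. Probe sequences were not used here, so binding of a probe to a related gene was not tested.

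The 9 genes and all gene lists were chosen with earlier results of these data known. The text names the 9 genes and the 3 largest rises and falls past the threshold in each list with at least 3 such genes. These lists were organ growth, ethylene and P450. Also named are the 2 genes nearest to the member with the largest rise and to that with the largest fall. Tissue markers, neighbouring loci, the genes nearest to CYP78A8 and OSR1, and CYCD3;1 are named besides. P450 genes were taken as loci whose RefSeq symbol or synonym starts with CYP and a digit, less 9 cyclophilins removed after the data were seen. The alternatives were quantile, median and spike-in scaling (8 probes), normexp (offset 50, run on median spot signals in place of means), normexp from 153 negative-control spots, the authors' table, both looser and stricter detection (no filter, or all 8 arrays), averaged probes, robust eBayes with a trend, the replicate number as a block, the fit without the 3 marked arrays, and leaving out arrays one by one. A block for slide could not be fitted, since each slide holds 1 group.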

Additional observations from a re-analysis of the deposited data

Results flagged for a closer look

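CYP78A8 stood out for wild-type replicate 1, which read -3.94 where the nearest of the other 3 wild-type arrays read -1.69; this gap was 0.882 of the range of the group, above Dixon's critical value for a group of this size. RTE1 stood out for wild-type replicate 3, which read 0.46 where the nearest array read 0.25, a gap of 0.84 of the range. These were 2 of 72 groups of 4 arrays tested, 16 of them of the CYP78A and ARGOS genes, and chance gives about 5% of groups. Over 22072 genes, wild-type replicate 1 was lowest and apart in this sense for 333 genes, against 39, 249 and 98 for wild-type replicates 2, 3 and 4.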

How the results depend on the processing

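Of the alternatives, spike-in scaling, normexp and the fit without the 3 marked arrays moved most counts. With spike-in scaling, whose 8 probes differed between groups by -0.69 to 0.66, 1403 genes were higher and 3012 lower, 4 of the CYP78A and ARGOS genes passed, 2 growth promoters were lower, 0 restrictors and 0 ethylene genes were higher in limma (1 of each at an unadjusted p under 0.05), 3 ethylene genes were lower, 15 other loci with a CYP symbol were higher and 1 neighbouring locus was higher. With normexp, 3984 genes, 21 other loci with a CYP symbol and 5 neighbouring loci were higher, 5 of the CYP78A and ARGOS genes passed, BB turned to -0.037, CYP71A24 to -1.41 and the neighbouring loci HB-12 to -0.077 and AT1G74120 to -0.18, and the median of all genes moved by -0.20. Without the 3 marked arrays, which leaves 3 mutant and 2 wild-type arrays, 3 restrictors and 1 ethylene gene were higher, 3 neighbouring loci were lower, and 5 of the CYP78A and ARGOS genes passed. Leaving out 1 array at a time gave 6 to 8 of these genes past the threshold, where 48.6% to 55.8% of all genes passed. The mean of its probes turned the neighbouring locus AT3G59910 to -0.022. Over the 28 named genes and the 15 neighbouring loci past the threshold, 800 values under the alternatives kept direction and side of the threshold, 53 lost the call and 5 reversed. Leaving the cyclophilins out of the loci with a CYP symbol, chosen after seeing the data, gave 42 higher and 64 lower in place of 42 and 66. The replicate block gave 11337 genes (51.3%) and left 7 CYP78A and ARGOS genes past the threshold. Deviations of same-numbered arrays correlated between -0.28 and 0.17 and those of other pairs between -0.09 and 0.25. No pairing by number was seen in these values, which with 4 arrays a group cannot exclude one. The causes of these shifts were not tested. Signal over background limits CYP78A10, not well above it on any array, and the size of the fall of CYP78A6, dim in the mutant.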

Other observations

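Markers of flowers and seeds, organs in which CYP78A6 and CYP78A9 are best known, were read as well. Of 5 such markers 4 were tested. CRA1, a seed storage protein gene, rose by 0.77 ± 0.16 (adjusted p = 0.0046), and SEP3, a floral identity gene, fell most (-1.89 ± 0.25, adjusted p = 4.5e-04). AP1, well above background on no mutant array, was lower (adjusted p = 0.0137, measured means -8.04 ± 0.15 and -7.09 ± 0.56, SD, n = 4 each), by 1.32-fold on the same approximate bound as for BR6OX2. AG did not pass (0.04 ± 0.14, adjusted p = 0.824). Their summed level relative to the 75th percentile, most of it from SEP3, was 0.243 to 0.482 on the mutant arrays and 0.904 to 1.33 on the wild-type arrays. Any part of these markers in the CYP78A values was not tested.

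Among markers of the shoot apex, the meristem gene STM rose by 1.14 ± 0.24 (adjusted p = 0.0044) and the organ boundary gene CUC1 by 0.83 ± 0.14 (adjusted p = 0.0013), while CUC3, of the same family as CUC1, fell (-1.07 ± 0.05, adjusted p = 3.5e-06) and so did CUC2 (-0.44 ± 0.10, adjusted p = 0.0073). The stem cell gene CLV3 exceeded background on 1 of 4 mutant arrays and on all 4 wild-type arrays, and did not pass (-0.06 ± 0.36, adjusted p = 0.903). WUS and LFY were not tested, since neither exceeded background throughout a group.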
